A study of Mus musculus with 2 samples.

Results

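The genes described are 10 enzymes and partner proteins that make eicosanoids, the leukotrienes and prostanoids derived from arachidonic acid, out of 55416 genes counted in both libraries. They were Alox5, Alox5ap, Lta4h and Ltc4s of the leukotriene branch and Ptgs1, Ptgs2, Ptges, Hpgds, Tbxas1 and Ptgds of the prostanoid branch. They were picked by name as a family, with their levels in these libraries already known, so their levels are given as a description without a test. The cells searched, 2143 from muscle and 7638 from lung, were barcodes in which 200 or more genes were seen and mitochondrial genes gave no more than 10% of UMIs (unique molecular identifiers, each standing for 1 captured RNA), less predicted doublets.

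Droplet 5′ single-cell RNA libraries were made from cells held on CD45 magnetic beads, 1 library each for gastrocnemius muscle and lung. The titles name TB mice for both, and the genotype label of both is CAC mouse model. The labels name no treatment, age, strain or number of animals for either library, and what the short names stand for was not assumed. The design text presents the series as a search for targets in cachexia and in muscle side effects of immune therapy, with antibody-treated muscle sequenced separately and not analysed here.

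Arachidonic acid is cut from membrane phospholipids by phospholipases. In the leukotriene branch Alox5 (5-lipoxygenase), helped by the membrane protein Alox5ap (FLAP), makes leukotriene A4, which Lta4h turns into leukotriene B4, a neutrophil attractant, or Ltc4s joins to glutathione to give leukotriene C4. In the prostanoid branch the cyclooxygenases Ptgs1 (COX-1, usually constitutive) and Ptgs2 (COX-2, inducible) make prostaglandin H2, which Ptges turns into prostaglandin E2, Hpgds and Ptgds into prostaglandin D2 and Tbxas1 into thromboxane A2.

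The muscle library held 14056163 UMIs over 5547 barcodes and the lung library 34751225 UMIs over 8481 barcodes. The mitochondrial limit removed 59.5% of muscle barcodes and 3.22% of lung barcodes. Median depth of kept cells was 3049 UMIs in muscle and 2136.5 in lung. Ptprc, which encodes CD45, had 161 CPM in muscle against 458 CPM in lung, and 51.9% of kept muscle cells were endothelial-like, with 0 to 2.12 CPM of Ptprc in the 4 muscle endothelial groups. The libraries shared 64 deposited barcodes, of which 21 were kept. Levels are CPM, the summed UMIs of a gene per 1000000 UMIs of a cell group in 1 library, with exact 95% Poisson intervals in brackets, and they cover counting error only because no tissue had a replicate. Cell groups are likenesses to marker lists, found by clustering without the enzyme genes, and groups under 20 cells in a library are not described. Each stromal group in lung fell under that size, with at most 16 cells, so lung stroma is described only pooled, over 21 cells.

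**Figure D1:**
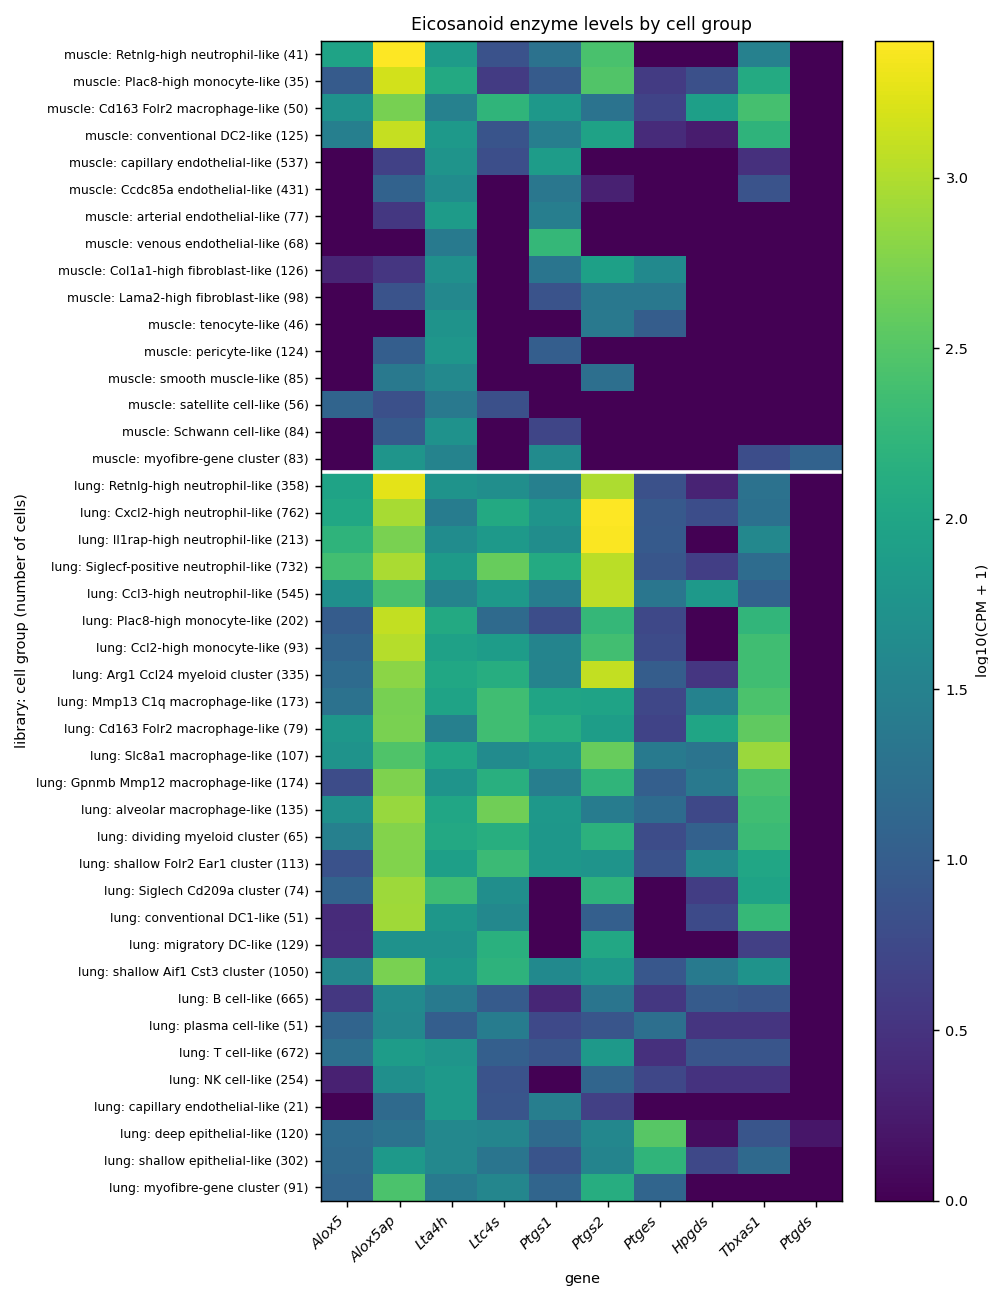
Level of each of the 10 genes as log10(CPM + 1), by colour, in every cell group of at least 20 cells, with the muscle library above the white line and the lung library below it. Alox5ap is bright across neutrophil-like, monocyte-like and conventional DC-like rows, Ptgs2 across lung neutrophil-like rows, and Ptges in the lung epithelial-like rows, while Ptgds is dark nearly throughout.

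Most RNA of Alox5, Alox5ap and Ltc4s lay in myeloid cells of both tissues, while most Ptgs1 and Ptges RNA of muscle lay in endothelium and stroma. Neutrophil-like cells were 34.2% of kept lung cells and gave 20.03% of lung UMIs, but held 63.7% of the lung UMIs of Alox5 and 67.1% of those of Ptgs2. In lung the monocyte-like, macrophage-like and related groups held 85.3% of Tbxas1 UMIs and 55.8% of Hpgds UMIs, against 37.6% of all UMIs. Epithelial-like cells held 84.5% of lung Ptges UMIs, against 12.6% of all lung UMIs. In muscle 70.6% of Ptgs1 UMIs came from endothelial-like cells, which gave 41.9% of all muscle UMIs. Stroma, with 27.4% of all muscle UMIs, held 87.5% of the 48 Ptges UMIs. DC-like cells, with 15.6%, held 55.8% of Alox5ap UMIs, most of them in the conventional DC2-like group (1518 of 1696 UMIs). Such shares move with the cells present in each library, since neutrophil-like cells were 2.75% of kept muscle cells.

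**Figure D2:**
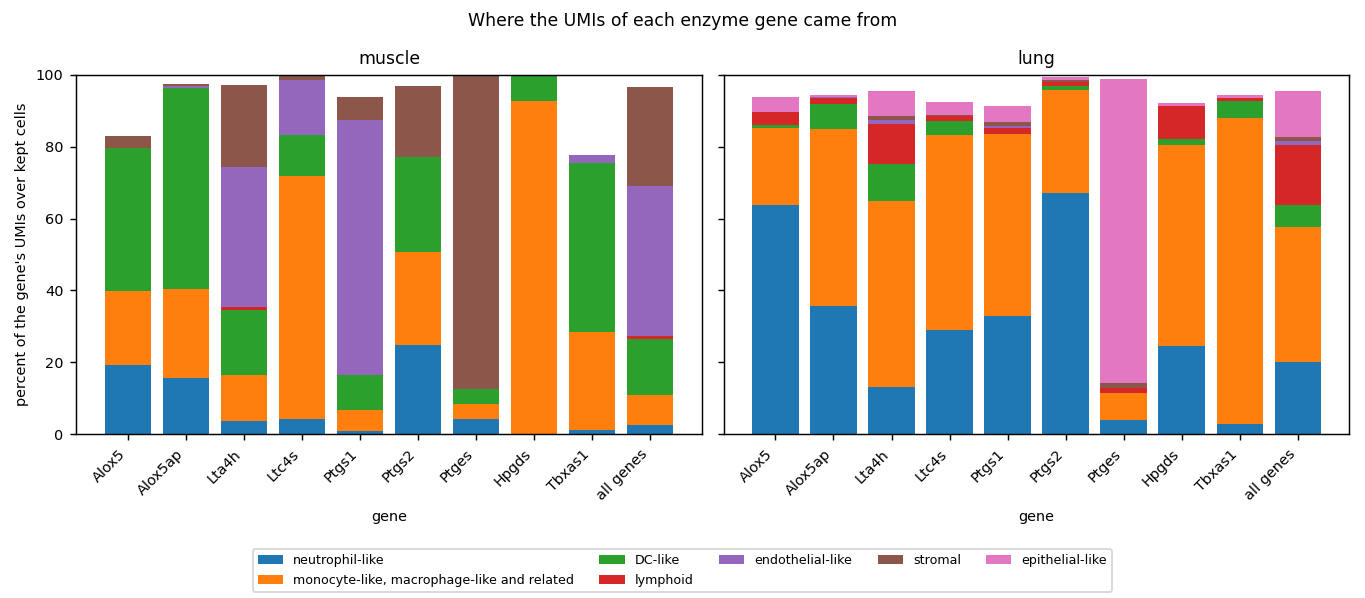
Percent of the UMIs of each enzyme gene, and of all genes, that fell in each family of cell groups, muscle on the left and lung on the right. What is missing to 100 lay in clusters given no family, and the bar of all genes shows the share each family would hold of an evenly spread gene.

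The level of Alox5, the enzyme that opens the leukotriene branch, was highest in lung neutrophil-like cells. It stood at 234 CPM (211 to 259, 362 UMIs) in Siglecf-positive neutrophil-like cells, a group with 301 CPM of the sialic acid lectin gene Siglecf. The Il1rap-high group had 162 CPM (132 to 198), the Cxcl2-high group 104 CPM (90.7 to 119) and the Ccl3-high group 48.7 CPM (35.8 to 64.8). The Il1rap-high group was named on 6 of 8 neutrophil markers. S100a8 stood at 1819 CPM in it against 2716 CPM in other cells, and S100a9 at 3254 CPM against 3293 CPM. Retnlg-high neutrophil-like cells, which had the highest S100a8 among the neutrophil-like groups, stood at 91.8 CPM (51.4 to 151, 15 UMIs) in muscle and 92.1 CPM (72.5 to 115, 76 UMIs) in lung. The intervals of the Siglecf-positive and Il1rap-high groups did not overlap with each other or with those of the other lung neutrophil-like groups. Outside neutrophils the next levels were in macrophages, 53.0 CPM in muscle and 62.3 CPM in lung for Cd163 Folr2 macrophage-like cells, 54.9 CPM (41.4 to 71.2) in Slc8a1 macrophage-like cells and 49.95 CPM (38.8 to 63.3) in alveolar macrophage-like cells of lung. No Alox5 UMI was found in 4 muscle endothelial groups, where in the capillary group 3 UMIs, the limit taken for a count of 0, equal 1.49 CPM and the exact interval ends at 1.84 CPM.

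Alox5ap, the partner that presents arachidonic acid to Alox5, was spread more widely. Its highest level was in Retnlg-high neutrophil-like cells, 2496 CPM (2259 to 2750, 408 UMIs) in muscle and 1846 CPM (1754 to 1941, 1524 UMIs) in lung. Plac8-high monocyte-like cells followed with 1469 CPM (1345 to 1601) in muscle and 1232 CPM (1168 to 1298) in lung, and muscle conventional DC2-like cells had 1248 CPM (1186 to 1312). The last group was named on 4 of 6 markers, with Flt3 at 8.94 CPM against 14.7 CPM in other cells and Ffar2 at 0. Its 8 macrophage markers summed to 3773 CPM in muscle, against 5226 CPM in Plac8-high monocyte-like and 58001 CPM in Cd163 Folr2 macrophage-like cells. An Alox5ap UMI was seen in 41 of 41 muscle and 324 of 358 lung Retnlg-high cells, and in 87.5% and 76.3% of them after each cell was thinned to 1000 UMIs. In lung B cell-like cells, read here as the level that free RNA can give, Alox5ap stood at 41.8 CPM and was seen in 8.57% of cells (4.12% thinned) at a median depth of 2026 UMIs, against 1981.5 UMIs in lung Retnlg-high cells. Migratory DC-like cells, at 53.8 CPM, were near that level, while conventional DC1-like cells had 826 CPM (755 to 901).

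Lta4h, the hydrolase that makes leukotriene B4, varied least among the leukotriene genes. It was detected in all 16 muscle and 27 lung groups, from 9.30 CPM in lung plasma cell-like cells upward. Its highest level was 217 CPM (182 to 257, 137 UMIs) in a lung cluster led by Siglech and Cd209a. The marker rule classed that cluster as plasmacytoid DC, with 5 of 5 markers up, though Siglech was seen in 21.1% of its cells. Since it carries conventional DC2 markers too, it is called by its leading genes. Plac8-high monocyte-like cells had 117 CPM (84.1 to 159) in muscle and 116 CPM (97.1 to 138) in lung, whose intervals overlap almost wholly. Muscle endothelial groups lay between 23.1 and 72.8 CPM, lung neutrophil-like groups between 26.2 and 71.1 CPM, and lung B cell-like cells at 24.4 CPM.

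Ltc4s, the synthase of leukotriene C4, had a pair of separate peaks in lung. Alveolar macrophage-like cells stood at 461 CPM (426 to 499, 628 UMIs) and Siglecf-positive neutrophil-like cells at 413 CPM (382 to 446, 639 UMIs). The alveolar group was named on 4 of 6 markers. Siglecf stood at 34.5 CPM in it against 24.8 CPM in other cells, and Fabp4 at 224 CPM against 1177 CPM. Cd163 Folr2 macrophage-like cells had 167 CPM (121 to 224) in muscle and 226 CPM (187 to 271) in lung, and Mmp13 C1q macrophage-like cells of lung 226 CPM (204 to 250). The intervals of the 2 leading groups overlapped and lay above those of all other groups. A UMI of Ltc4s was seen in 82.2% of alveolar macrophage-like cells (36.1% thinned) and in 37.7% of Siglecf-positive cells (23.9% thinned), against 1.504% of lung B cell-like cells (0.494% thinned), with median depths of 9611, 1852 and 2026 UMIs. Leukotriene C4 synthase is a known product of eosinophils, mast cells and macrophages. The 5 eosinophil markers summed to 8.40 CPM in Siglecf-positive cells, with Epx at 0, against 4.84 CPM in lung Retnlg-high cells, with Prg2, Epx and Il5ra at 0. The 6 mast cell or basophil markers summed to 11.6 CPM in Siglecf-positive cells, with Cpa3 and Mcpt4 at 0, against 1.21 CPM in lung Retnlg-high cells, from Mcpt8 alone. The 6 alveolar macrophage markers, Siglecf among them, summed to 1765 CPM in Siglecf-positive cells, 1003 CPM in lung Retnlg-high cells and 14229 CPM in alveolar macrophage-like cells, and the part of these 3 marker lists in the Ltc4s level was not tested.

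The cyclooxygenases were highest in different cells. The upstream sequences of their genes are shown because Ptgs2 and Ptgs1 make the same product and their levels were laid out differently over the cell groups. Both are from RefSeq on GRCm38.p6, 250 bases that end just before the annotated start, and capitals mark matches to TTGCGCAA (the C/EBP palindrome), GGGCGG (GC box) and GGAAGT (ETS core) on either strand.
Ptgs2, chr1:150099781-150100030, plus strand: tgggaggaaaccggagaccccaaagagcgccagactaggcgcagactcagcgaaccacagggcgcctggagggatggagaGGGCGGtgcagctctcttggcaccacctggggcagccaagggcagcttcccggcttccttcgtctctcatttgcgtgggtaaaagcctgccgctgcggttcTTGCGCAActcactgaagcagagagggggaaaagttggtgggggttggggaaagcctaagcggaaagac
Ptgs1, chr2:36230176-36230425, plus strand: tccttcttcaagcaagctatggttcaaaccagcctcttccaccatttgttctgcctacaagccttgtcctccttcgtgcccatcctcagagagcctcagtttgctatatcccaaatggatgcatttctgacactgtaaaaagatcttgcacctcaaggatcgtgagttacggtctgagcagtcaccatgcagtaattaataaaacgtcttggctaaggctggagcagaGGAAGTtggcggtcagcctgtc
TTGCGCAA begins 69 bases before the Ptgs2 start and was found in 0.164% of 32851 promoter windows of that length, and GGGCGG begins 170 bases before that start and was found in 32.7% of them. GGAAGT begins 22 bases before the Ptgs1 start and was found in 19.7% of windows, among them those of Ltc4s and Hpgds. The motifs TATAAA (12.4% of windows), ACGTCA (6.47%), CACGTG (6.02%) and CCAAT (33.8%) were searched too and had no match in either window, 7 motifs in all, none overlapping another here. Of the 10 genes, 9 had a promoter in the table, Tbxas1 matched TATAAA, Lta4h matched CCAAT, and Alox5 and Ptges matched GGGCGG. A match is a run of letters and not a site shown to be used.

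Ptgs2 was highest in lung neutrophil-like cells. It reached 2519 CPM (2450 to 2589, 5094 UMIs) in the Cxcl2-high group and 2406 CPM (2285 to 2532, 1468 UMIs) in the Il1rap-high group, whose intervals overlap. The Il1rap-high group also had 19471 CPM of the nuclear RNA Malat1, against 5754 to 8844 CPM in the other lung neutrophil-like groups, and the part of that RNA make-up in its levels was not tested. The Ccl3-high group had 1142 CPM (1076 to 1212), the Siglecf-positive group 1108 CPM (1056 to 1162) and the Retnlg-high group 950 CPM (884 to 1018). A lung cluster led by Arg1 and Ccl24, unnamed but myeloid, stood among them at 1210 CPM (1166 to 1254). A UMI was seen in 77.6% of Cxcl2-high cells (64.9% thinned) and in 4.66% of lung B cell-like cells (2.31% thinned), which had 19.9 CPM. Among muscle groups of at least 20 cells, Plac8-high monocyte-like cells led with 300.0 CPM (245 to 363). Retnlg-high neutrophil-like cells had 263 CPM (190 to 354, 43 UMIs in 41 cells). Pooled with smaller subsets of at most 8 cells each, all 59 muscle neutrophil-like cells held 108 UMIs, or 497 CPM (408 to 600). In 537 capillary endothelial-like cells 0 UMIs were found, with the same limits as for Alox5.

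Ptgs1 was led by a vessel group. Muscle venous endothelial-like cells, which had 3982 CPM of Selp, stood at 182 CPM (137 to 236, 55 UMIs in 68 cells). They had 14000 CPM of Malat1, against 3378 CPM in capillary, 4277 CPM in arterial and 12998 CPM in Ccdc85a endothelial-like cells of muscle. The Ccdc85a group had 21.2 CPM of Ptgs1, and the part of that RNA make-up in the Ptgs1 levels was not tested. Cd163 Folr2 macrophage-like cells had 64.4 CPM (37.5 to 103) in muscle and 131 CPM (101 to 166) in lung, Siglecf-positive neutrophil-like cells 118 CPM (102 to 137) and muscle capillary endothelial-like cells 75.7 CPM (64.1 to 88.7). The interval of the venous group overlapped that of lung Cd163 Folr2 macrophage-like cells and began just above the end of that of Siglecf-positive cells. Platelets are a known source of COX-1, and of the 5 platelet markers Pf4, Ppbp, Gp9 and Gp1bb had 0 UMIs in the venous group, with a summed level of 16.5 CPM from Itga2b. Arterial endothelial-like cells of muscle had 27.6 CPM of Ptgs1 and lung B cell-like cells 1.29 CPM. No Ptgs1 UMI was found in the lung conventional DC1-like, migratory DC-like, NK cell-like and Siglech Cd209a groups. The NK cell-like group had 6 of 6 NK cell markers up but also Cd8a and Cd8b1 among its leading genes.

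The terminal synthases divided between cell families. Ptges, the inducible prostaglandin E synthase, stood at 328 CPM (309 to 348, 1089 UMIs) in the deep and 168 CPM (132 to 210) in the shallow lung epithelial-like cluster, both outside the CD45-positive cells the beads select for. Muscle Col1a1-high fibroblast-like cells had 40.6 CPM (27.9 to 57.0, 33 UMIs) and Lama2-high fibroblast-like cells 22.3 CPM (8.97 to 46.0, 7 UMIs), and no Ptges UMI was found in the 4 muscle endothelial groups. The same Col1a1-high cells had 83.7 CPM of Ptgs2, the highest Ptgs2 level in muscle stroma. Pooled lung stroma, 21 cells of which 16 were Col1a1-high fibroblast-like, had 51.2 CPM (30.3 to 80.9, 18 UMIs) of Ptges. Its Ptgs2 level was 179 CPM (138 to 229, 63 UMIs). The 619 pooled muscle stromal cells, of which 126 were Col1a1-high, had 17.6 CPM of Ptges and 35.6 CPM of Ptgs2. Ptges in lung neutrophil-like groups, 6.06 to 20.7 CPM, was close to its 16.3 CPM in lung plasma cell-like cells and above the 2.57 CPM of B cell-like cells.

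**Figure D3:**
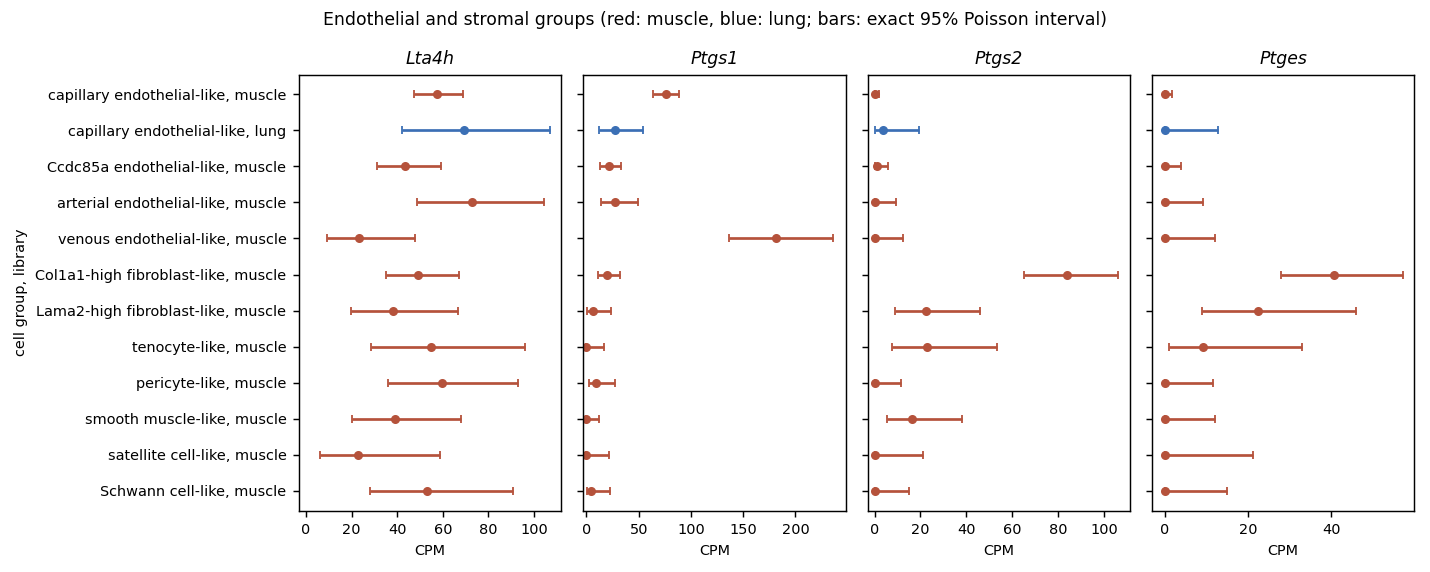
Level in CPM, with exact 95% Poisson intervals, of Lta4h, Ptgs1, Ptgs2 and Ptges in endothelial and stromal groups of muscle (red) and in the lung capillary endothelial-like group (blue). Ptgs1 peaks in the venous group at 182 CPM, Ptgs2 and Ptges in Col1a1-high fibroblast-like cells at 83.7 and 40.6 CPM, and Lta4h is present in every group.

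Hpgds, the blood-cell prostaglandin D synthase, was highest in Cd163 Folr2 macrophage-like cells of both tissues. Those cells had 83.3 CPM (52.2 to 126, 22 UMIs) in muscle and 97.4 CPM (72.3 to 128, 50 UMIs) in lung. Ccl3-high neutrophil-like cells of lung had 66.3 CPM (51.1 to 84.7, 64 UMIs), and a UMI was seen in 35 of 545 of them (4.46% thinned) against 0.165% of B cell-like cells thinned. Every other neutrophil-like group lay at or under 5.44 CPM, below the 8.36 CPM of lung B cell-like cells. Mast cells are a known Hpgds source, and the 6 mast cell or basophil markers summed to 12.4 CPM in the Ccl3-high group, with Ms4a2, Fcer1a, Cpa3 and Mcpt4 at 0, against 1.21 CPM in lung Retnlg-high cells. The 8 macrophage markers summed to 786 CPM in the Ccl3-high group and 503 CPM in lung Retnlg-high cells, against 39896 CPM in lung Cd163 Folr2 macrophage-like cells, and the part of either cell type was not tested. The Ccl3-high group passed its name narrowly, on 3 of 8 neutrophil markers.

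Tbxas1, thromboxane A synthase, was highest in macrophage-like cells. Its level was 781 CPM (727 to 837, 797 UMIs) in the Slc8a1 macrophage-like cells of lung, a group named on 3 of 8 macrophage markers with 9265 CPM of Malat1 against 946 to 2690 CPM in the 4 other lung groups called macrophage-like. Cd163 Folr2 macrophage-like cells had 250 CPM (193 to 318) in muscle and 374 CPM (323 to 431) in lung, and Plac8-high monocyte-like cells 120.0 CPM (86.5 to 162) in muscle and 173 CPM (150 to 199) in lung. Conventional DC1-like cells of lung had 187 CPM (154 to 224) and conventional DC2-like cells of muscle 163 CPM (141 to 187). The 5 lung groups called macrophage-like lay at or above 228 CPM. A shallow lung cluster kept under its leading genes Folr2 and Ear1, which had 6 of 8 macrophage markers up, was lower at 100.5 CPM (57.5 to 163), and neutrophil-like groups of lung lay at or under 37.7 CPM. Ptgds, the prostaglandin D synthase best known in brain, had 2 UMIs in all kept muscle cells and 2 in all kept lung cells, so no level by cell group could be read.

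Lung neutrophil-like subsets were set against lung Retnlg-high neutrophil-like cells. The size rule called a gene apart if the CPM of the groups differed by 4-fold or more, the exact 95% binomial interval of that ratio left out 2 and the higher group held no fewer than 30 UMIs. Of 26 gene and subset pairs measured with at least 10 UMIs over both groups, 4 were apart. The subsets were clusters of the same cells, so this is a description and no test.

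Siglecf-positive over Retnlg-high cells, 2 of 8 measured members were higher and 0 lower, where 4.32% of 9148 genes were higher and 0.831% lower. Ltc4s stood at 413 CPM against 47.2 CPM (log2 ratio 3.13, 2.66 to 3.63) and Ptgs1 at 118 CPM against 29.1 CPM (2.02, 1.41 to 2.70). The median of all genes in that comparison was 0.82, and Ptgs1 dropped out of the calls under TMM or size factor scaling, at 1.35. Alox5 was at 234 CPM against 92.1 CPM (1.35, 0.99 to 1.72) and Alox5ap at 940.5 CPM against 1846 CPM (-0.97, -1.08 to -0.87), so the enzyme and its partner lay on opposite sides. Both ratios fell short of the size rule, and size factor scaling gave 0.67 for Alox5 and -1.65 for Alox5ap. Ptgs2 (0.22) and Lta4h (0.35) changed sign under those scalings, with -0.46 and -0.33 under size factors, and Lta4h was at 1.47 with the libraries clustered separately.

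Ccl3-high over Retnlg-high cells, 1 of 9 measured members was higher and 1 lower, where 5.59% of 8063 genes were higher and 1.85% lower around an all-gene median of 0.55. Hpgds stood at 66.3 CPM against 1.21 CPM (64 against 1 UMIs, log2 ratio 5.78, 3.25 to 11.1) and Alox5ap at 268 CPM against 1846 CPM (-2.78, -2.98 to -2.59). Alox5 (-0.92) was lower too without reaching the size rule. Lta4h (-0.79) fell short of it as well and was at 0.10 with the libraries clustered separately. Ptgs2 was at 1142 CPM against 950 CPM (0.27, 0.13 to 0.40), a sign that turned under TMM (-0.14) and size factor scaling (-0.20) and with the libraries clustered separately (-0.24). Median depth was 1537 UMIs in Ccl3-high cells and 1981.5 in Retnlg-high cells.

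Cxcl2-high over Retnlg-high cells, 0 of 9 measured members were apart, where 0.977% of 8697 genes were higher and 0.333% lower. The largest ratios were those of Ptgs2, 2519 CPM against 950 CPM (1.41, 1.30 to 1.52), of Ltc4s, 114 CPM against 47.2 CPM (1.27, 0.77 to 1.80), and, downward, of Alox5ap at 894 CPM against 1846 CPM (-1.05, -1.14 to -0.95) and of Lta4h at 26.2 CPM against 55.7 CPM (-1.09, -1.69 to -0.49). The Lta4h ratio was -0.02 with the libraries clustered separately, where that of Alox5ap was -1.07. Hpgds had a higher ratio from 11 against 1 UMIs, with an interval of -0.62 to 7.59 that spans no difference. The all-gene median was 0.29. The median over measured members was 0.39 in Cxcl2-high, 0.29 in Siglecf-positive and -0.11 in Ccl3-high cells.

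**Figure D4:**
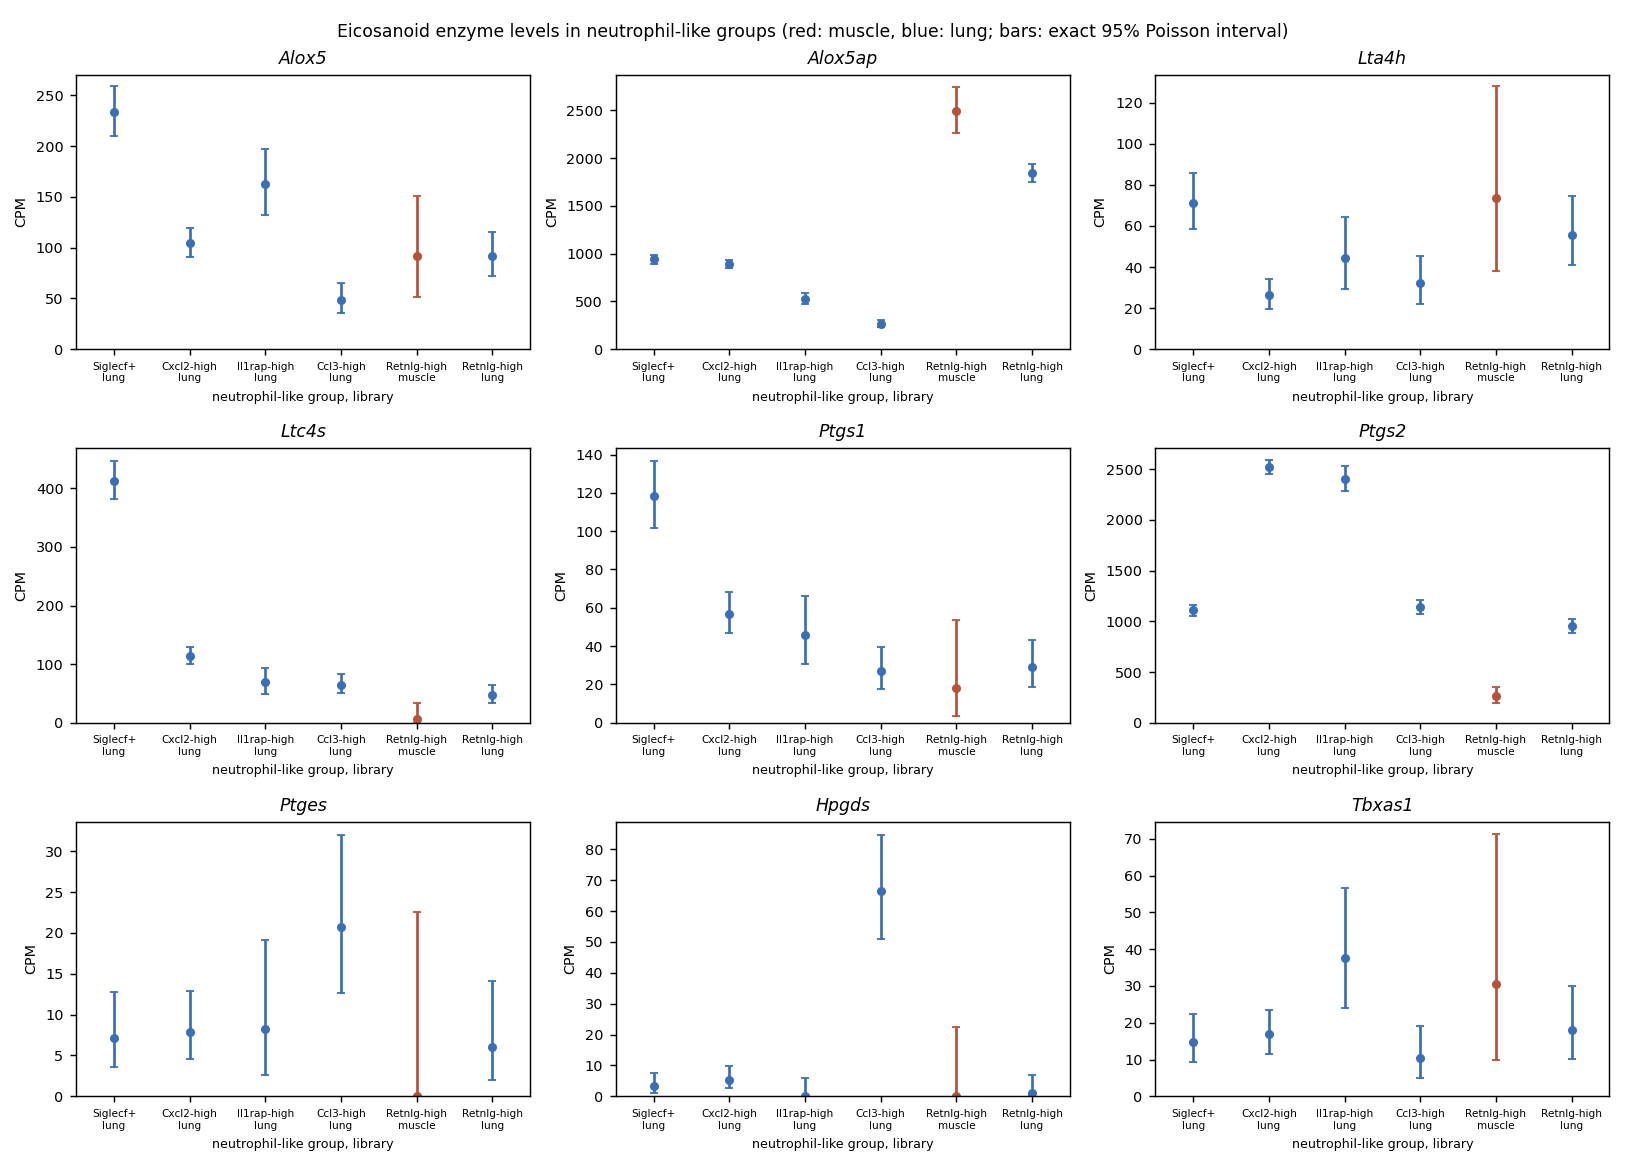
Level in CPM, with exact 95% Poisson intervals, of 9 genes in the lung neutrophil-like subsets and in Retnlg-high neutrophil-like cells of muscle (red) and lung (blue). Siglecf-positive cells stand highest for Alox5, Ltc4s and Ptgs1, Cxcl2-high and Il1rap-high cells for Ptgs2, Ccl3-high cells for Hpgds, and Retnlg-high cells for Alox5ap.

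The tissues could be compared in 4 groups that held at least 20 cells in each library, and 0 of 25 measured gene and group pairs were apart by size. Over all genes 1.21% were apart in Retnlg-high neutrophil-like cells, 0.365% in Plac8-high monocyte-like cells, 1.2% in Cd163 Folr2 macrophage-like cells and 3.26% in capillary endothelial-like cells. With 41, 35, 50 and 537 muscle cells against 358, 202, 79 and 21 lung cells, the counts set how wide each interval was. The median log2 ratio over measured members, beside that over all genes, was -0.0046 and -0.04 in the neutrophil-like, -0.01 and -0.11 in the monocyte-like, -0.34 and -0.04 in the macrophage-like and -0.31 and -0.19 in the endothelial group.

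Ptgs2 differed in direction between groups. In Retnlg-high neutrophil-like cells it stood at 263 CPM in muscle against 950 CPM in lung (43 against 784 UMIs, log2 ratio -1.85, -2.33 to -1.41), and in Plac8-high monocyte-like cells at 300.0 CPM in muscle against 184 CPM in lung (0.71, 0.35 to 1.05). Cd163 Folr2 macrophage-like cells had 18.9 CPM in muscle against 77.9 CPM in lung (5 against 40 UMIs, -2.04, -3.74 to -0.70). In those neutrophil-like cells the 8 neutrophil markers summed to 164491 CPM in muscle against 109297 CPM in lung and the chemokine gene Cxcl2 stood at 3719 CPM against 15225 CPM, so the cells behind the name differed in make-up, and its part in the Ptgs2 ratio was not tested. The Ptgs2 ratio was -1.04 in Retnlg-high cells with the libraries clustered separately, and -0.74 in the macrophage-like cells with at most 5% mitochondrial UMIs. Whether the ratio differed between the groups was not tested either.

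Alox5ap was higher in muscle in Retnlg-high neutrophil-like cells (0.44, 0.27 to 0.59) and Plac8-high monocyte-like cells (0.25, 0.11 to 0.40), by less than the size rule asks. Ptgs1 stood at 75.7 CPM in muscle against 27.7 CPM in lung in capillary endothelial-like cells (152 against 8 UMIs, 1.45, 0.44 to 2.69), and at 64.4 CPM in muscle against 131 CPM in lung in Cd163 Folr2 macrophage-like cells (-1.02, -1.88 to -0.24). Tbxas1 was lower in muscle in monocyte-like (-0.53, -1.05 to -0.04) and macrophage-like cells (-0.58, -1.01 to -0.17). In those macrophage-like cells the 5 platelet markers summed to 1636 CPM in muscle against 5254 CPM in lung, of which Pf4 made 1628 CPM in muscle and 5108 CPM in lung. Pf4 was also among the leading genes of that macrophage-like cluster itself. Gp9 and Gp1bb were at 0 in both tissues and Itga2b in lung, and the part of these markers in the Ptgs1 and Tbxas1 ratios was not tested. Alox5, Lta4h and Hpgds had intervals that included equal levels wherever they were measured, though Lta4h in Retnlg-high cells (0.40) was at 1.501 with the libraries clustered separately. Ltc4s had 1 UMI in muscle against 39 in lung in Retnlg-high cells (-2.95, -8.29 to -0.39), or 6.12 CPM in muscle against 47.2 CPM in lung, and -1.78 with the libraries clustered separately.

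**Figure D5:**
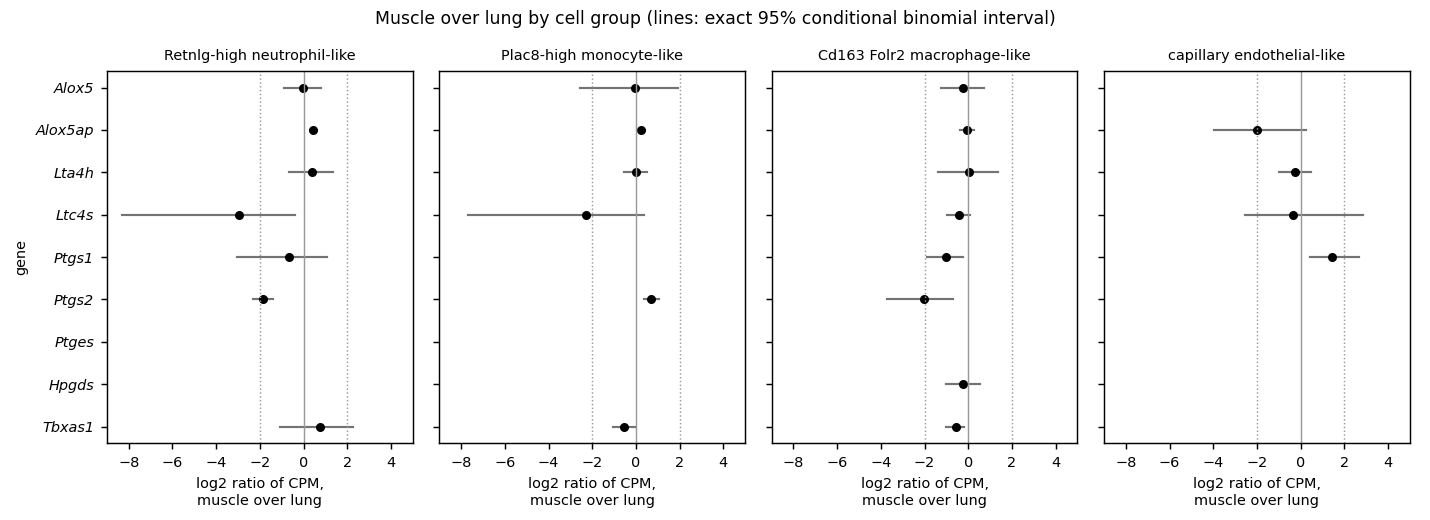
Log2 ratio of CPM, muscle over lung, for genes with at least 10 UMIs over both libraries in each of 4 cell groups. Points are ratios, lines are exact 95% conditional binomial intervals and dotted lines mark a ratio of 4 either way. No gene was apart by size, and the narrowest intervals are those of Alox5ap in neutrophil-like and monocyte-like cells.

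The rest of the pathway was read from 45 genes in 7 roles. Muscle over lung, 3 of 61 measured pairs were apart, all in capillary endothelial-like cells, where 2.19% of all genes were higher and 1.07% lower. Ptger4, a prostaglandin E2 receptor, had 70 UMIs in muscle against 0 in lung (34.9 CPM, at least 3.36-fold higher against a floor of 3 lung UMIs). It counted as apart on its ratio to a count of 0, which has no upper end, and a 4-fold difference is not shown, since its interval begins at 2.66-fold. Hpgd, which inactivates prostaglandins, had 1 UMI in muscle against 61 in lung (0.498 against 211 CPM, log2 ratio -8.73, -14.1 to -6.20), and the prostaglandin transporter Slco2a1 stood at 85.2 CPM in muscle against 429 CPM in lung (-2.33, -2.68 to -1.99).

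Upstream, the arachidonate-releasing phospholipase Pla2g4a was highest in Slc8a1 macrophage-like cells at 260 CPM (229 to 293), and Pla2g7, which cleaves platelet-activating factor, in Cd163 Folr2 macrophage-like cells with 386 CPM in muscle and 390 CPM in lung. Muscle Retnlg-high neutrophil-like cells were close to these, at 379 CPM (291 to 486, 62 UMIs) of Pla2g7. Downstream of leukotriene B4, Cyp4f18, which oxidises it, was at 291 to 585 CPM in lung neutrophil-like groups, and its receptor gene Ltb4r1 had 220 CPM in muscle and 203 CPM in lung Retnlg-high cells. Ltb4r1 was 47.7 CPM in Ccl3-high cells against 203 CPM in Retnlg-high cells (-2.09, -2.60 to -1.62), and Ggt5, which trims leukotriene C4, 13.5 against 124 CPM (-3.20, -4.15 to -2.36). Cysltr1, a receptor for cysteinyl leukotrienes, stood at 65.9 CPM in Siglecf-positive and 49.4 CPM in Cxcl2-high cells against 10.9 CPM in Retnlg-high cells (2.60, 1.62 to 3.77, and 2.18, 1.199 to 3.35). The export pump gene Abcc1 was 80.9 CPM in Ccl3-high and 42.0 CPM in Cxcl2-high cells against 8.48 CPM (3.25 and 2.31), Abcc4 48.7 against 9.69 CPM in Ccl3-high cells (2.33), and the reductase gene Akr1b3 21.3 against 1.21 CPM in Siglecf-positive cells (4.14, 33 against 1 UMIs). Of the 45 genes, 2 of 18 measured were apart upward in Cxcl2-high cells, where 0.977% of all genes were, and 2 of 20 in Siglecf-positive cells, where 4.32% were. In Ccl3-high cells 2 of 15 were apart upward and 2 downward, where 5.59% of all genes were higher and 1.85% lower.

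Among the commonest of the 45 genes, Slco2a1 and the prostaglandin exporter gene Abcc4 were highest where Ptgs1 was, in muscle venous endothelial-like cells, at 852 CPM (751 to 962) and 317 CPM (257 to 387). The part of the high Malat1 of that group in these levels was not tested. Mgst3, a microsomal glutathione transferase, was highest in deep epithelial-like cells at 471 CPM (447 to 494). Akr1b3 and Ptges3, a co-chaperone also described as a prostaglandin E synthase, had their highest values in muscle satellite cell-like cells. These were 166 CPM (111 to 239, 29 UMIs) and 195 CPM (135 to 272, 34 UMIs). The Akr1b3 interval held that of alveolar macrophage-like cells, 142 CPM (122 to 163). The Ptges3 interval held that of deep epithelial-like cells, 188 CPM (174 to 204), so no peak is shown for either gene. Abcc1 was highest in Slc8a1 macrophage-like cells at 156 CPM (132 to 182). Its interval overlapped that of muscle Cd163 Folr2 macrophage-like cells, 129 CPM (89.2 to 180).

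Over 39 cell groups of at least 50 cells, levels as log2(CPM + 10) were correlated across groups as a description. Groups of 1 library share their preparation and depth, so no p is given. Among the members Alox5ap and Tbxas1 (r = 0.77), Alox5ap and Ltc4s (0.75) and Alox5 and Ptgs2 (0.74) ran closest, and Ptgs1 with Ptgs2 gave 0.27. Alox5 was most like Cd33 (0.89), P2ry13 and Cd300ld, Alox5ap most like Lrrc25 (0.94), Tyrobp and Spi1, and Ltc4s most like Clec4n (0.89), Cd300c2 and Fcgr4. Ptgs2 was most like Tarm1 (0.93), Il1r2 and Cd80, Tbxas1 like Tifab (0.93), Mpeg1 and Zfp992, and Hpgds like Ms4a7 (0.85), Npl and Tmem86a. Ptges was most like the epithelial genes Krt19 (0.89), Rbp4 and Cyp3a13. Lta4h and Ptgs1 had weaker neighbours, Cyp4f16 (0.76) with Rap2a and Pmvk, and Sdcbp (0.74) with Hmox1 and Hacd4.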

How the data were processed

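The deposited values were raw counts of UMIs per gene and barcode, whole numbers with no normalization, made by the authors with Cell Ranger 7.0.1 on GRCm39 per the submitters' processing notes. Libraries used the 10x Genomics 5' v2 kit per the labels' protocols. The annotation release, intron counting and cell calling are not given in the sources used here, so intron reads may raise levels in nuclear-RNA-rich groups. No deposited barcode held fewer than 500 UMIs.

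Barcodes with at least 200 genes and at most 10% mitochondrial UMIs were kept (2243 muscle, 8194 lung). Simulated doublets (2 per cell) scored each cell, and the top 0.8% per 1000 barcodes was removed, 100 muscle and 556 lung cells. Both libraries were clustered together without integration (2000 variable genes, 30 components, 15 neighbours, Leiden at resolution 1.0, myeloid and mural clusters divided again, 48 clusters joined into 38 groups), in Python 3.11.15 with numpy 2.4.6, scipy 1.17.1, scikit-learn 1.9.0 and leidenalg 0.10.2. Clustering did not use the 10 members or the 45 pathway genes. Names required at least 3 markers 2-fold up. The size rule was checked on simulated data.

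The members, gene lists and rules were chosen with earlier results of these data known. Named genes were all 10 members, pathway genes apart by size or among the 10 with the most counts, and for each member with at least 200 counts the 3 genes with the highest correlation. Intervals are exact Poisson, Clopper-Pearson or conditional binomial ones and cover counting error only. There was 1 library per tissue, so no test was made. Alternatives were other filters, resolutions, scalings and count minimums, clustering with the member genes, and clustering each library alone. Those for the neutrophil subsets were chosen after seeing the data. Promoters came from a table on GRCm38.p6 and were not joined to the files by coordinates.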

Additional observations from a re-analysis of the deposited data

Results flagged for a closer look

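Signal of the enzyme genes was also present in barcodes outside the described cells, above the level of 3 UMIs, 0.635 CPM in muscle and 4.85 CPM in lung. These barcodes were removed for over 10% mitochondrial UMIs or under 200 genes. The 3304 muscle barcodes held 2.33 CPM of Alox5, 29.2 CPM of Alox5ap, 27.7 CPM of Lta4h, 16.3 CPM of Ptgs1, 6.14 CPM of Ptgs2 and 13.8 CPM of Tbxas1. The 287 lung barcodes held 17.8 CPM of Alox5, 112 CPM of Alox5ap, 40.5 CPM of Lta4h, 25.9 CPM of Ltc4s, 14.6 CPM of Ptgs1, 172 CPM of Ptgs2, 97.1 CPM of Ptges and 102 CPM of Tbxas1.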

How the results depend on the processing

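No paired analysis was possible because each tissue has only 1 library, and for the same reason no replicate could be left out. The count of members apart by size, muscle over lung, was 0 under all 11 alternatives. For the 45 pathway genes it was 3, and 3 or 4 elsewhere except 5 with at least 1000 UMIs per barcode and 0 with libraries clustered separately, where the macrophage-like and endothelial groups were not recovered in both tissues. The neutrophil subset count of 4 was 3 or 4 where it could be made. With doublets kept, at resolution 0.5 or with member and pathway genes used for clustering, the Retnlg-high group was not recovered, so the subset comparison and the tissue comparison of that group could not be made. Of 439 single ratios 399 stayed within their interval, 40 moved and 0 called ones reversed; of 196 levels 162 stayed and 34 moved. Thinning moved 26 of 27 shares. The leading group was the same in all 8 alternatives for Alox5, Lta4h, Ptges and Tbxas1, in 7 for Ltc4s, 6 for Ptgs1, 5 for Alox5ap and 4 each for Ptgs2 and Hpgds. Among the groups compared, depth limits muscle Retnlg-high cells most, where 3 UMIs equal 18.4 CPM; in the lung myofibre-gene cluster they equal 35.7 CPM.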

Other observations

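Clusters called by their leading genes, and not by a cell type, also carried the enzymes. The shallow lung cluster led by Aif1 and Cst3, 1050 cells with a median of 748.5 UMIs, had 157 CPM of Ltc4s and 513 CPM of Alox5ap, and the shallow Folr2 Ear1 cluster, 113 cells with a median of 1153 UMIs and 6 of 8 macrophage markers up, had 207 CPM of Ltc4s and 37.7 CPM of Hpgds from 6 UMIs. The dividing myeloid cluster of lung, 65 cells, had 133 CPM of Ltc4s and 206 CPM of Tbxas1. Clusters led by myofibre genes had 59.2 CPM of Alox5ap in muscle and 273 CPM in lung, where their 91 cells had a median of 699 UMIs.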
